A study of Mus musculus with 6 samples.

Results

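Hepcidin and iron handling genes were followed in the livers of mice that made viral oncoproteins of SV40. The group was chosen by name and holds 10 genes of the 19324 named by the array annotation: Hamp, Tfrc, Tfr2, Trf, Fth1, Ftl1, Slc40a1, Hfe, Bmp6 and Cp. They have 32 probe sets on the 430A and 430B array designs together, where a probe set is a group of short probes read as 1 signal. Of these, 22 are annotated to a single gene and cover 8 of the genes. Another 4 are annotated to several genes at once and are the only ones for Trf and Ftl1, so their values cannot be assigned to either gene. The remaining 6 are Affymetrix control probe sets for Tfrc. Of the 22, 16 were above a floor on low signals on all 3 genotypes' arrays, 2 on some and 4 on none.

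The mice were males of the hybrid B6SJL background, 32 to 37 days old, and all of them, WT included, drank 25 µg/ml doxycycline with 2.5% sucrose for 4 days. LT livers came from ApoErtTA:TRE2-TAg transgenic mice, in which doxycycline induced the SV40 large T antigen (LT) together with the small t antigen (st). 17kT livers came from mice labelled 17kT ApoErtTA:TRE2-TAg in the titles and 17kT ApoErtTA:TRE2-TA in the genotype field, in which 17kT was induced together with st. WT livers carried no transgene, so the effect of ApoErtTA and that of the viral proteins cannot be told apart in any comparison with WT. By the title of the series, expression was conditional and specific to the liver. Large T binds the retinoblastoma family and p53, and 17kT is a short form that keeps the retinoblastoma binding motif and lacks the p53 binding part. Each genotype gave 1 array of each design, 6 arrays in all. The labels do not say if an array holds RNA of 1 mouse or of several.

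Systemic iron is set by hepcidin, the peptide hormone encoded by Hamp and made by hepatocytes. Hepcidin binds ferroportin, the cellular iron exporter encoded by Slc40a1, and has it degraded, so that less iron enters the plasma. Hepatocytes adjust Hamp to iron through bone morphogenetic protein (BMP) signals passed on by SMAD proteins, with the membrane proteins HFE and transferrin receptor 2 as iron sensors, and to inflammation through interleukin 6 and STAT3. Iron travels bound to transferrin, enters dividing and red cell precursors by the transferrin receptor encoded by Tfrc, is stored in ferritin, and is oxidised for transport by ceruloplasmin.

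Values are given as deposited signals, which have no unit and were compared only within a probe set. Every array had been scaled to the same 2% trimmed mean, between 250.03 and 250.12. The floor, the median of all signals of a design, was 90.4 on 430A and 140.5 on 430B. Signals below it were set to it before log2 ratios were taken, and a gene was counted as measured in a comparison when at least 1 of the 2 arrays exceeded it. With 1 array per genotype and design no replicate error exists and no p-value can be given, so a difference was called when it reached 2-fold, that is 1 on the log2 scale. Precision is limited by the number of arrays, and the only error that could be measured is technical. From 100 probe sets present on both designs, the SD of 1 log2 ratio was 0.23 in LT against WT. It was 0.28 when 17kT was set against WT and 0.26 between LT and 17kT. These SDs leave out a shift between the designs. The median log2 ratio on 430A minus that on 430B was -0.25 in LT against WT, 0.19 in 17kT against WT and -0.36 in LT against 17kT. From pairs of different probe sets of 2880 genes, the SDs were 0.54, 0.51 and 0.46 in the same order. The 3' over 5' signal ratio of the Gapdh control, a sign of RNA integrity, was 3.08 and 3.16 for LT, 3.53 and 2.85 for 17kT and 5.81 and 6.04 for WT. That of the Actb control was 2.52 and 2.50 for LT, 2.13 and 1.72 for 17kT and 2.57 and 2.29 for WT. A difference in RNA integrity between WT and the others cannot be told apart from genotype. Both LT arrays list fluidics station 2 and the other 4 list station 1, and station cannot be told apart from the LT genotype. The deposited 17kT signals carry more decimals than those of LT and WT. Whether the 17kT arrays were run or processed apart was not examined. Any such difference cannot be told apart from the 17kT genotype. All 15 hepatocyte markers on the arrays were above the floor in every liver.

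Hamp, the hepcidin gene, was much higher in both kinds of transgenic liver. Tfr2, the iron sensing receptor of hepatocytes, was lower in both. Tfrc was lower in 17kT liver by its brightest probe set. The other 4 measured genes, Fth1, Slc40a1, Hfe and Cp, stayed within 2-fold of WT by their brightest probe sets. In LT against WT, 1 of 7 measured iron genes was higher and 1 lower, beside 20.1% of 12775 measured genes called, 11.1% higher and 9.01% lower. In 17kT against WT, 1 of 7 was higher and 2 lower, beside 18.6% of 12992 called, 9.97% higher and 8.64% lower. With 7 genes, nothing particular to iron handling can be read from these counts. The median log2 ratio of the 7 genes was -0.18 in LT and -0.29 in 17kT, beside 0.02 and 0.07 for all measured genes. Both comparisons use the same WT arrays, so their values are not independent.

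**Figure D1:**
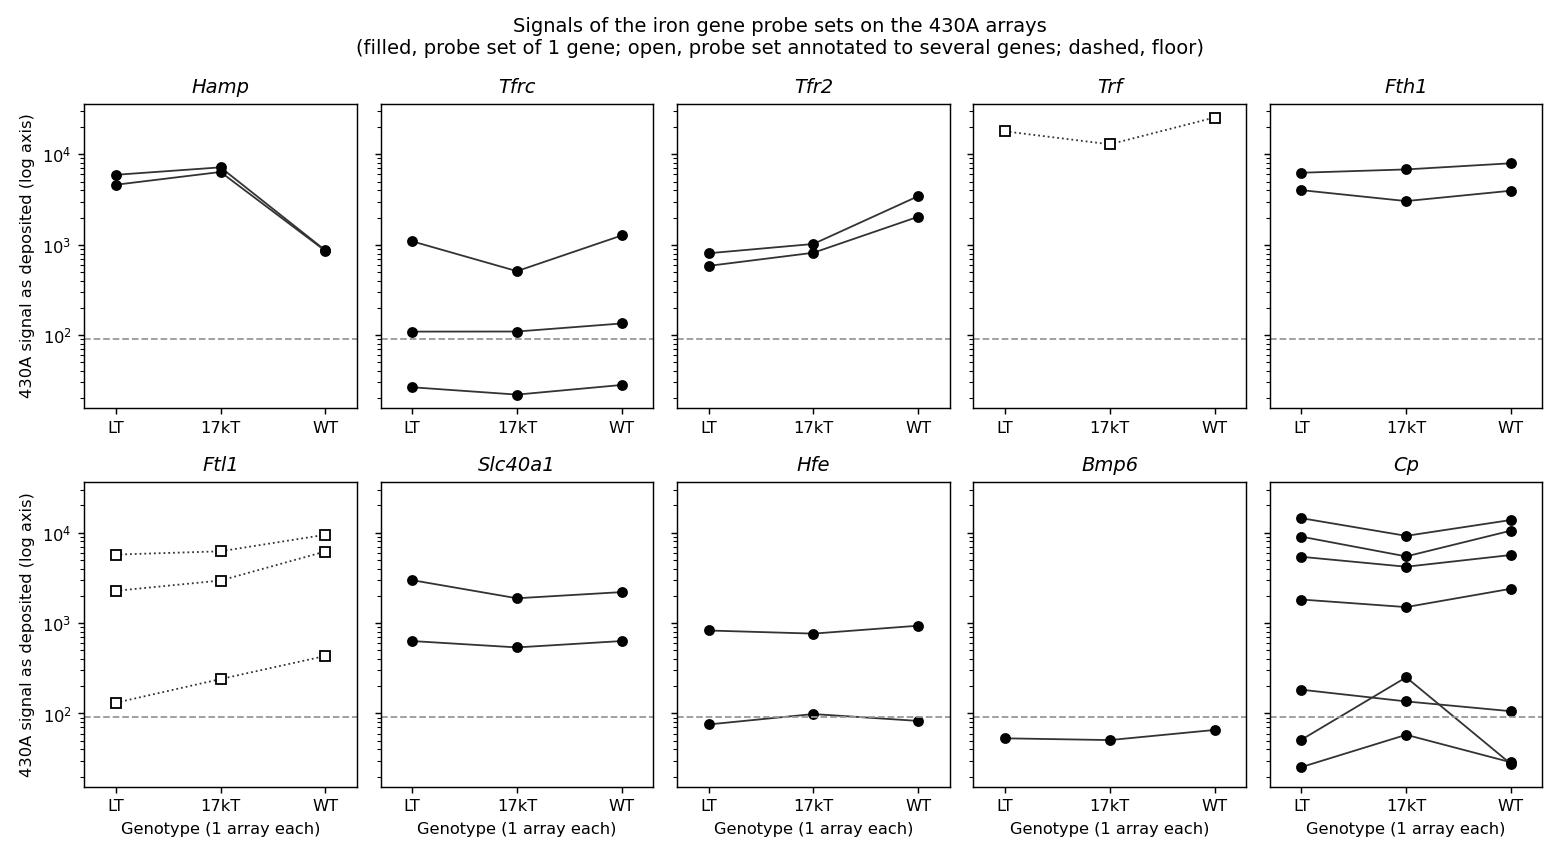
Deposited signals (log axis) of the iron gene probe sets on the 430A arrays of LT, 17kT and WT liver, 1 array each, with a line joining the 3 arrays of a probe set, open squares for probe sets annotated to several genes and a dashed line at the floor. Both Hamp probe sets stand at 4610 or above in LT and 17kT liver against 867 or below in WT, and both Tfr2 probe sets stand below WT in LT and 17kT liver.

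The sequence upstream of Hamp is shown because it carries the elements through which the known BMP and STAT3 inputs act. That of Hamp2, the gene beside it in the same family, is shown for comparison. Both lie before the annotated start, so their likeness does not show what the probe sets read. The windows are the 250 bases before the annotated start in RefSeq, on the minus strand of GRCm38.p6, 5′ to 3′, at chr7:30944030-30944279 for Hamp and chr7:30924182-30924431 for Hamp2. Capitals mark matches to GGCGCC, the core of the BMP responsive element, and to TTCNNNGAA, the STAT binding motif. Both motifs read the same on either strand, and they do not overlap here.
Hamp: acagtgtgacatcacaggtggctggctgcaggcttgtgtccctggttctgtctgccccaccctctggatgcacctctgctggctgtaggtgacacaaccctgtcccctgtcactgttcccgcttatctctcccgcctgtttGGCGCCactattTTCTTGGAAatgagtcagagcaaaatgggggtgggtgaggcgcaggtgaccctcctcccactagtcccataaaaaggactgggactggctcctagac
Hamp2: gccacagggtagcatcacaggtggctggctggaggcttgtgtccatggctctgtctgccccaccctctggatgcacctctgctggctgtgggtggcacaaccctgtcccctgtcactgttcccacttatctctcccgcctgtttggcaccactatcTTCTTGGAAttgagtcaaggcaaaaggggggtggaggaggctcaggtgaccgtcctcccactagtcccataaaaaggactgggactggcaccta
The Hamp window holds GGCGCC from -109 and TTCTTGGAA from -97, counted from -1 at the base before the start. Over 247 aligned bases the 2 windows were 91.9% identical. The Hamp2 window keeps the STAT match, at -94, and has the substitution G4A in the other motif, counted from 1 at its first base. Of all 32851 windows of this length in the table, 9.59% hold GGCGCC and 7.02% hold TTCNNNGAA. Among 13 windows of 8 member genes, GGCGCC was found for Hamp and for 1 start of Tfrc, and TTCNNNGAA for Hamp. No window was available for Trf and Slc40a1, so they were not searched for the motifs.

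The hormone gene came out alike on both of its probe sets. Probe set 1419196_at of Hamp read 5938 in LT and 7184 in 17kT liver, against 867 in WT. Its partner 1419197_x_at, of a kind that can bind several genes, read 4610 in LT and 6381 in 17kT liver, against 856 in WT. The transgenic livers were the high ones on both, and 17kT was the highest. By 1419196_at Hamp was 6.85-fold higher in LT than in WT (log2 ratio 2.78) and 8.29-fold higher in 17kT than in WT (3.05). By 1419197_x_at the folds were 5.38 and 7.45. Only 68 of 12775 measured genes had a larger ratio than Hamp in LT against WT, and 46 of 12992 in 17kT against WT. Between the transgenic livers the log2 ratios of Hamp for LT against 17kT were -0.27 by 1419196_at and -0.47 by 1419197_x_at. The technical SD was 0.26, and across 6 scalings the ratio by 1419196_at ran from -0.63 to -0.11. Hamp is also an acute phase gene, induced in inflammation. Values of some other genes that inflammation induces follow, picked without a list set in advance. Hp had log2 ratios of -0.69 in LT and -2.25 in 17kT, and Cp 0.07 and -0.58 on its brightest probe set. Lcn2 had 1.31 and 1.04, and Steap4 -0.00 and 1.64. The part of inflammation in the value of Hamp was not tested.

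Mouse liver has a second hepcidin gene, Hamp2, whose product is not known to regulate iron. Its probe set 1456289_at read 12.9 in LT and 10.2 in 17kT liver, against 30.7 in WT, all under the floor. Its other probe set, 1436643_x_at, read 1802.5 in LT and 2261 in 17kT liver, against 838.5 in WT. That is 2.15-fold and 2.70-fold higher. These 2 probe sets of Hamp2 thus disagree, and the bright one is of the kind that can bind several genes, so that how much Hamp RNA it reads was not tested.

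Tfr2 encodes the second transferrin receptor, which senses iron-loaded transferrin on hepatocytes and is needed for normal Hamp levels. Probe set 1425381_a_at of Tfr2 read 583.5 in LT and 815 in 17kT liver, against 2040.1 in WT. Probe set 1459994_x_at read 805 in LT and 1019.9 in 17kT liver, against 3445 in WT. Both were lower in both transgenic livers, with LT lowest. By the first, Tfr2 was 3.50-fold lower in LT (log2 ratio -1.81) and 2.50-fold lower in 17kT (-1.32). By the second the folds were 4.28 and 3.38. Scaled to the bacterial and phage hybridisation controls, the ratio for 17kT was -0.60 and no longer 2-fold, while that for LT was -1.44. Some hepatocyte markers were lower too. Of 15 measured, 6 were lower, 0 higher and 9 within 2-fold in LT (median -0.79), and 7 were lower, 0 higher and 8 within 2-fold in 17kT (median -0.75). Of all genes, 9.01% were lower in LT and 8.64% in 17kT. Across 6 scalings, 4 to 9 of the markers were lower in LT (median -1.04 to -0.34), and 3 to 7 in 17kT (median -0.96 to -0.03). In bulk liver, fewer cells of a type and less RNA per cell cannot be told apart, and the part of these markers in the value of Tfr2 was not tested.

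Hfe encodes the atypical MHC class I protein that binds both transferrin receptors and is mutated in hereditary haemochromatosis. Probe set 1422645_at of Hfe read 828 in LT and 764 in 17kT liver, against 935 in WT, log2 ratios of -0.18 and -0.29. Its other probe set lay under the floor in LT and WT and just above it, at 98.5, in 17kT. No array stood out for Hfe, and it did not reach 2-fold.

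Bmp6 encodes the ligand by which liver endothelial cells signal iron to hepatocytes. Its single probe set read 53.1 in LT and 50.8 in 17kT liver, against 65.7 in WT. All 3 lie under the floor, so these arrays give no direction for Bmp6. Among markers of liver endothelial cells, 4 of 14 measured were lower and 0 higher in LT (median -0.54), and 2 were lower and 1 higher in 17kT (median -0.39). Over the scalings, 0 to 4 were lower in LT, and 0 to 3 were lower and 0 to 3 higher in 17kT.

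Tfrc encodes the transferrin receptor that takes iron into cells and is abundant on dividing cells and red cell precursors. Its brightest probe set, 1452661_at, read 1092 in LT and 510.3 in 17kT liver, against 1267 in WT. The 17kT array stood apart as the low one. On this probe set Tfrc was 2.48-fold lower in 17kT than in WT (log2 ratio -1.31), and had a ratio of -0.21 in LT against WT. The dimmer 1422966_a_at read 109 in LT and 109.6 in 17kT liver, against 134.6 in WT, a log2 ratio of -0.30 in both. The drop in 17kT was thus seen on 1 of the 2 probe sets above the floor. The dimmer one lies too near the floor of 90.4 to show a 2-fold drop. Another, 1422967_a_at, was under the floor on every array. The 5 of 6 control readings of Tfrc under the floor on all arrays gave no direction. The remaining one, the 3' probe set on 430B, read 180 in LT and 115 in 17kT liver, against 166 in WT, a ratio of -0.24 or lower for 17kT.

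Of the cells that are rich in Tfrc, markers of dividing cells differed between the livers, and those of red cell precursors were mostly under the floor. All 10 measured genes of proliferating cells were higher in LT (median 2.94) and in 17kT (median 3.66). Of 10 erythroid genes with a probe set of their own, 6 were under the floor in every liver. Of 4 measured, 1 was higher, 1 lower and 2 neither in each comparison with WT, with medians of 0.00 in LT and -0.12 in 17kT. Only 1 of the 10 was above the floor on all 3 arrays, so these counts and medians rest largely on signals at or near the floor. The summed signal of the 10 was 626 in LT and 665 in 17kT, against 2267 in WT. That sum follows Alas2, the red cell form of the first heme enzyme, which read 124 in LT and 140.7 in 17kT liver, against 1742 in WT. Hba-a2, a globin gene, read 182 in LT and 189 in 17kT liver, against 72.5 in WT, which is under the floor. Their part in the values of Tfrc was not tested.

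Ferritin stores iron in a shell of heavy and light chains. Fth1, the heavy chain, read 6261 in LT and 6813 in 17kT liver, against 7969 in WT, on probe set 1448771_a_at. On 1427021_s_at it read 4018 in LT and 3041 in 17kT liver, against 3961 in WT. No Fth1 log2 ratio to WT lay beyond -0.38, and the 2 probe sets disagreed on which transgenic liver was the lower. The 3 probe sets annotated to the light chain gene Ftl1 are also annotated to Ftl1-ps2, a pseudogene, and 1422301_at to 3 microRNA genes as well. Of these, 1418364_a_at read 2274 in LT and 2955 in 17kT liver, against 6192 in WT. Probe set 1422302_s_at read 5722.5 in LT and 6224 in 17kT liver, against 9491 in WT. Probe set 1422301_at read 131 in LT and 240.02 in 17kT liver, against 433 in WT. All 3 were lower in both transgenic livers, with log2 ratios from -1.72 to -0.73 in LT and from -1.07 to -0.61 in 17kT. They were left out of every count.

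Trf encodes transferrin, the iron carrier of plasma, made by hepatocytes. The sole probe set annotated to it, 1425546_a_at, is annotated to Srprb as well. It read 17974 in LT and 12917 in 17kT liver, against 25567 in WT, log2 ratios of -0.51 and -0.98. The order was the same as for Tfrc on 1452661_at, with 17kT lowest, and neither ratio reached 2-fold.

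Slc40a1 encodes ferroportin, the exporter that hepcidin removes from the cell surface. Probe set 1417061_at of Slc40a1 read 2985 in LT and 1881 in 17kT liver, against 2202 in WT. Probe set 1448566_at read 632.6 in LT and 538 in 17kT liver, against 632.7 in WT. The log2 ratios were 0.44 and -0.00 in LT, and -0.23 on both in 17kT, so Slc40a1 RNA stayed within 2-fold of WT in the livers where Hamp was 5.38-fold to 8.29-fold higher. Ferroportin is abundant in Kupffer cells, the liver macrophages, whose markers had a median of -0.23 in LT and 0.13 in 17kT against WT, with 1 of 14 lower and 0 higher in each. Of all genes, 9.01% were lower in LT and 8.64% in 17kT. Across the 6 scalings the Kupffer median ran from -0.48 to 0.14 in LT, with 0 to 3 lower, and from -0.08 to 0.85 in 17kT, with 0 to 5 higher and 0 to 2 lower.

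Cp encodes ceruloplasmin, the copper enzyme of plasma that oxidises iron for loading onto transferrin. It has 8 probe sets. On the brightest, 1417494_a_at, Cp read 14475 in LT and 9224 in 17kT liver, against 13822 in WT. On 1455393_at it read 9039 in LT and 5464 in 17kT liver, against 10536 in WT. The array of 17kT was the lowest on both, and likewise on 1448734_at and 1417495_x_at, with log2 ratios from -0.95 to -0.43 on these 4, none at 2-fold. The LT ratios on them ran from -0.40 to 0.07. The dim probe sets did not follow. Cp 1448735_at read 51.2 in LT and 251 in 17kT liver, against 27.6 in WT, at least 2.78-fold higher in 17kT, and 1417496_at had ratios of 0.79 in LT and 0.36 in 17kT. The other 2 were under the floor on all arrays.

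**Figure D2:**
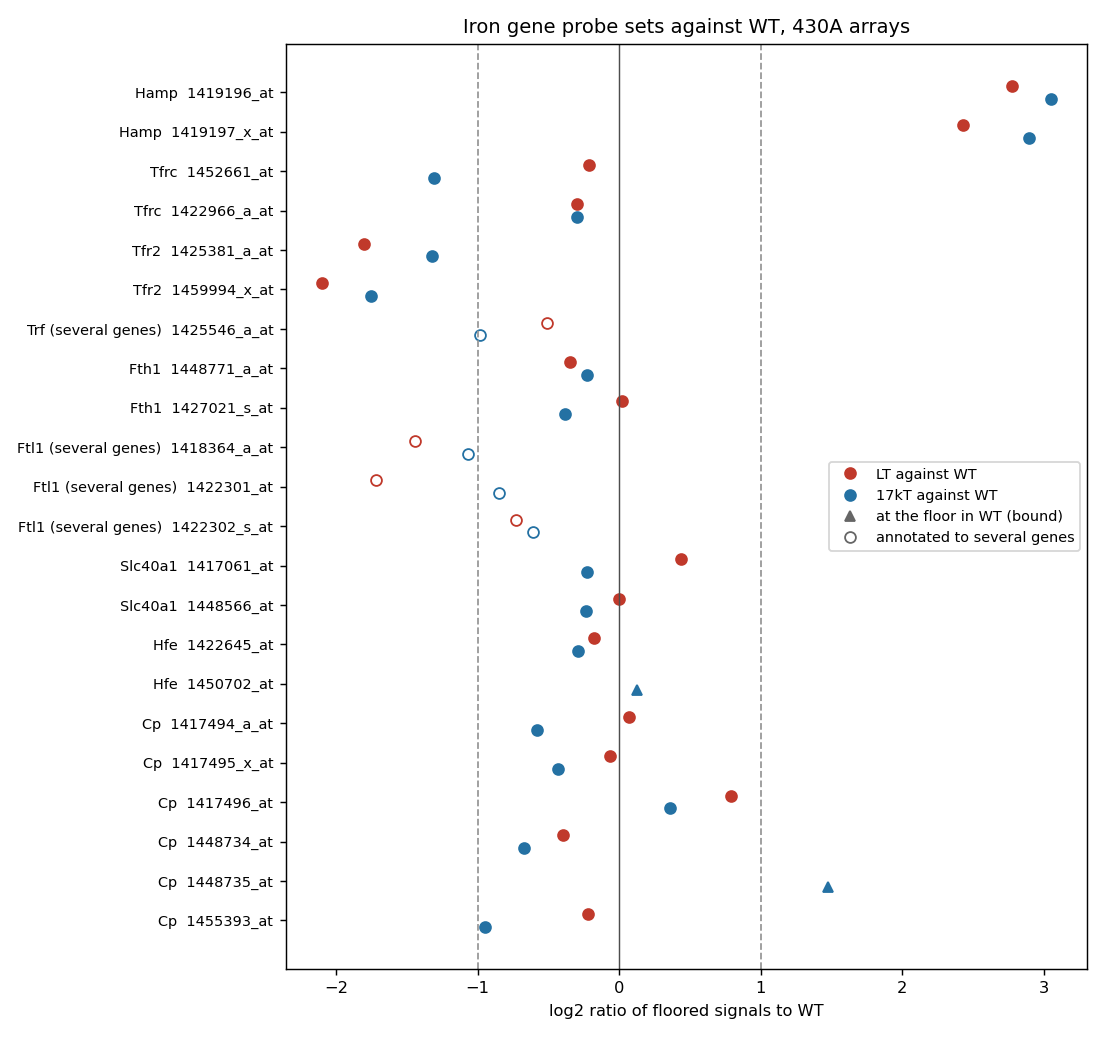
Log2 ratios of floored signals to WT for each 430A iron gene probe set above the floor on at least 1 array (open, annotated to several genes; triangles, bounds with WT at the floor), LT in red and 17kT in blue, with dashed lines at 2-fold. The Hamp probe sets lie from 2.43 to 3.05, those of Tfr2 from -2.10 to -1.32, and most others between the lines.

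Counted by probe set, 2 of 16 measured were higher and 2 lower in LT against WT, beside 18.8% of all 20657 measured probe sets called, 10.6% higher and 8.2% lower. In 17kT against WT, 3 of 18 were higher and 3 lower, beside 17.2% of 21185 called, 9.47% higher and 7.69% lower. The called ones are both probe sets of Hamp and of Tfr2 in each comparison, with Tfrc 1452661_at and Cp 1448735_at added in 17kT.

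**Figure D3:**
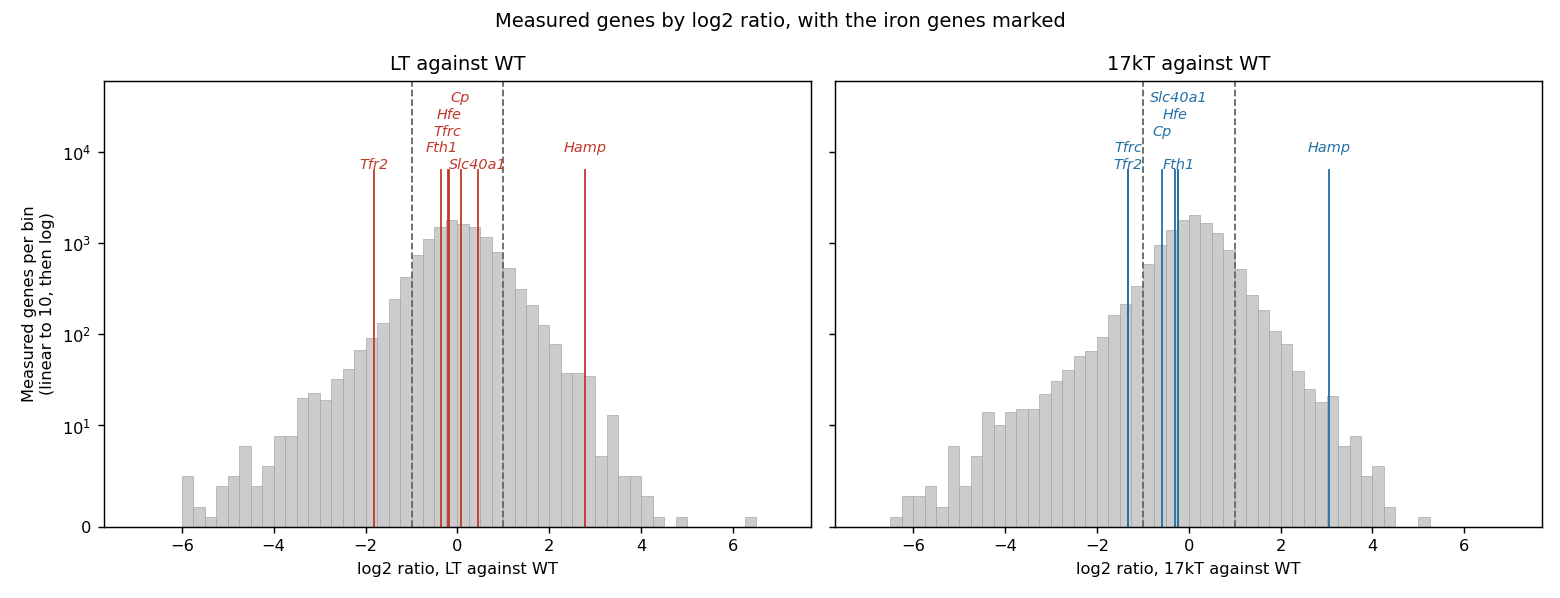
Number of measured genes per log2 ratio bin (linear to 10, then log) for LT and 17kT against WT, with the 7 measured iron genes marked at the ratio of the probe set that represents each (for Tfr2 1425381_a_at, since its brighter one is an _x_at kind) and dashed lines at 2-fold. Hamp lies far to the right in both, at 2.78 and 3.05, and Tfr2 to the left, at -1.81 and -1.32.

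The comparison of LT with 17kT asks how large T, which also binds p53, differs from the short form. Tfrc was 2.14-fold higher in LT than in 17kT on 1452661_at (log2 ratio 1.10), and was the 1 called gene of 7, beside 8.71% of 12541 measured genes called, 4.47% higher and 4.23% lower. Its second probe set, too near the floor to show a 2-fold difference in this direction, had a ratio of -0.00. Scaled to the hybridisation controls, the ratio of Tfrc was 0.75 and under 2-fold. Slc40a1 had a ratio of 0.67, Cp one of 0.65, and Tfr2 one of -0.48. Hfe stood at 0.11 and Fth1 at -0.12. Among the dim probe sets, 1448735_at of Cp was at the floor in LT and at least 2.78-fold lower there than in 17kT. By probe set, 1 of 18 was higher and 1 lower, beside 8.24% of 20433 called, 4.24% higher and 3.99% lower.

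The rest of the pathway was described by 5 lists, whose counts stand beside 11.1% higher and 9.01% lower among all genes in LT against WT, and 9.97% higher and 8.64% lower in 17kT against WT. Among 22 hepcidin regulators on the arrays, 3 of 21 measured were higher and 1 lower in LT against WT, with a median of 0.34. In 17kT 4 of 21 were higher and 2 lower, with a median of 0.41. Across the 6 scalings, 2 to 7 were higher in LT (median 0.05 to 0.74) and 3 to 10 in 17kT (median 0.21 to 0.99). Tmprss6, the liver protease that trims the BMP co-receptor hemojuvelin and so restrains Hamp, read 3739 in LT and 2563 in 17kT liver, against 10574 in WT. It was thus 2.83-fold lower in LT and 4.13-fold lower in 17kT, and past 2-fold under all 6 scalings in both. Hjv, hemojuvelin itself, had ratios of -0.49 in LT and -0.14 in 17kT.

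Genes known as targets of BMP and SMAD signals differed among themselves. Id1, a classic BMP target, read 265 in LT and 357 in 17kT liver, against 13.3 in WT, at least 2.93-fold and 3.95-fold higher, since WT was at the floor. Smad7, an inhibitory SMAD that is itself induced by the pathway, read 212 in LT and 304 in 17kT liver, against 63.5 in WT, at least 2.34-fold and 3.37-fold higher. Both were past 2-fold under all 6 scalings. A 430B probe set of Smad7 was above the floor in 17kT alone, with a ratio of 0.13 or higher. Smad6, another inhibitory SMAD, had a ratio of -0.73 or lower in LT, where it was at the floor, and of -0.44 in 17kT. Smad5, which carries the BMP signal, was 2.35-fold higher in LT on its 430B probe set. A dimmer 430A probe set of Smad5 had a ratio of -0.37 or lower, LT being under the floor there. Id2 was 2.72-fold higher in 17kT, and 0.65 on the log2 scale by a second probe set. In LT the same probe sets of Id2 gave 0.42 and -0.98 in that order, and so differed in sign. Id3 had ratios of 0.30 in LT and 0.55 in 17kT.

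For the genes of interleukin 6 signalling and of STAT3, 1 call was made. Socs3, a STAT3 target that damps interleukin signals, was 2.24-fold higher in 17kT, and had a ratio of 0.95 in LT. Its 2 other probe sets above the floor, with WT under it, gave 0.44 and 0.66 or higher in 17kT. Stat3 had ratios of 0.25 in LT and 0.87 in 17kT. Il6ra, the interleukin 6 receptor, had -0.88 and -0.58, and Il6st, its signalling partner, had 0.22 and 0.27. Cebpa, a hepatocyte transcription factor that activates Hamp, was 4.17-fold lower in 17kT and had a ratio of -0.88 in LT.

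Of the genes for iron uptake, export and reduction, 1 of 13 measured was higher and 0 lower in LT against WT (median 0.18), and 3 of 10 were higher and 1 lower in 17kT (median 0.64). Between scalings, 1 to 2 were higher and 0 to 1 lower in LT, and 2 to 5 were higher and 0 to 2 lower in 17kT. Lcn2, a siderophore binding protein, was 2.48-fold higher in LT and 2.06-fold higher in 17kT. Lcn2 is also a neutrophil product, and of the neutrophil markers 1 of 5 measured was higher in LT (median 0.62) and 0 of 3 in 17kT (median 0.19), whose part was not tested. Steap4, a metal reductase induced in inflammation, read 965 in LT and 3016 in 17kT liver, against 967 in WT, and was 3.12-fold higher in 17kT. Slc39a14, the importer of iron not bound to transferrin, was 2.48-fold higher in 17kT, and its 2 other probe sets above the floor gave 0.82 and 0.57. Slc39a8, a related importer, was 2.18-fold lower in 17kT.

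Among genes of iron sensing and ferritin turnover, 3 of 9 were higher and 0 lower in LT (median 0.64), and 2 were higher and 1 lower in 17kT (median 0.09). Across the 6 scalings the number higher ran from 0 to 5 in LT (median 0.17 to 1.09) and from 1 to 3 in 17kT (median -0.10 to 0.78). Pcbp2, an iron chaperone, was 2.17-fold higher in LT and 2.04-fold in 17kT. A second 430A probe set of Pcbp2 gave 0.88 and 1.49, while its 430B probe set read 159 in LT and 36.5 in 17kT liver, against 248 in WT, a ratio of -0.64 in LT and of -0.82 or lower in 17kT. Nfe2l2, the oxidative stress regulator that activates ferritin genes, was 2.07-fold and 2.33-fold higher, while its 430B probe set gave 0.07 and -0.02. Fbxl5, the iron sensing ligase subunit, was 2.14-fold higher in LT. Aco1, which doubles as an iron regulatory protein, was 2.11-fold lower in 17kT, and a second 430A probe set gave -0.99. That protein stabilises Tfrc RNA and blocks ferritin translation when iron is low.

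In heme synthesis and breakdown, 1 of 18 genes was higher and 3 were lower in LT (median -0.21), and 2 were higher and 2 lower in 17kT (median -0.12). Across the 6 scalings, 0 to 2 were higher and 1 to 4 lower in LT, and 2 to 5 were higher and 1 to 5 lower in 17kT. Uros, a heme synthesis enzyme, was 2.04-fold lower in LT and 2.02-fold lower in 17kT, though a 430B probe set of Uros read 51.5 in LT and 280.1 in 17kT liver, against 87.3 in WT. Cpox, another, was at least 2.90-fold lower in LT, where it was at the floor, and had a ratio of -0.82 in 17kT. A second 430A probe set of Cpox gave -1.45 or lower and -1.13, and a 430B one -0.61 or lower and -0.40. Blvrb, a biliverdin reductase, was 2.15-fold lower in LT. Flvcr1, described as a heme exporter, was 2.50-fold higher in LT and 2.06-fold higher in 17kT. Hmox1, which breaks heme down and frees its iron, was 2.75-fold higher in 17kT. Hp, the haptoglobin that binds free haemoglobin and is also an acute phase protein, was 4.77-fold lower in 17kT.

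For iron-sulfur cluster assembly, 0 of 15 genes were higher and 1 was lower in LT (median -0.25), and 0 were higher and 3 lower in 17kT (median -0.32). With the scaling varied, 0 were higher and 1 to 2 lower in LT, and 0 to 4 were higher and 1 to 3 lower in 17kT. Fdx1, a ferredoxin, was 3.09-fold lower in LT and 2.88-fold lower in 17kT. Glrx5, a mitochondrial glutaredoxin, was 2.27-fold lower in 17kT, and Bola3 was 2.02-fold lower there, with a ratio of -0.26 in LT. A second probe set of Bola3 read 162 in LT and 212 in 17kT liver, against 397 in WT, ratios of -1.30 and -0.90, so the probe sets differ on which liver passes 2-fold. The medians of all measured genes, 0.02 in LT and 0.07 in 17kT, are the values to read these lists beside. Of 13 list genes called in LT against WT, 6 stayed past 2-fold under all 6 scalings, and of 20 in 17kT, 11 did. The calls lost under at least 1 scaling were those of Smad5, Fbxl5, Pcbp2, Nfe2l2, Flvcr1, Uros and Blvrb in LT. In 17kT they were those of Socs3, Lcn2, Slc39a8, Pcbp2, Aco1, Uros, Fdx1, Glrx5 and Bola3.

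**Figure D4:**
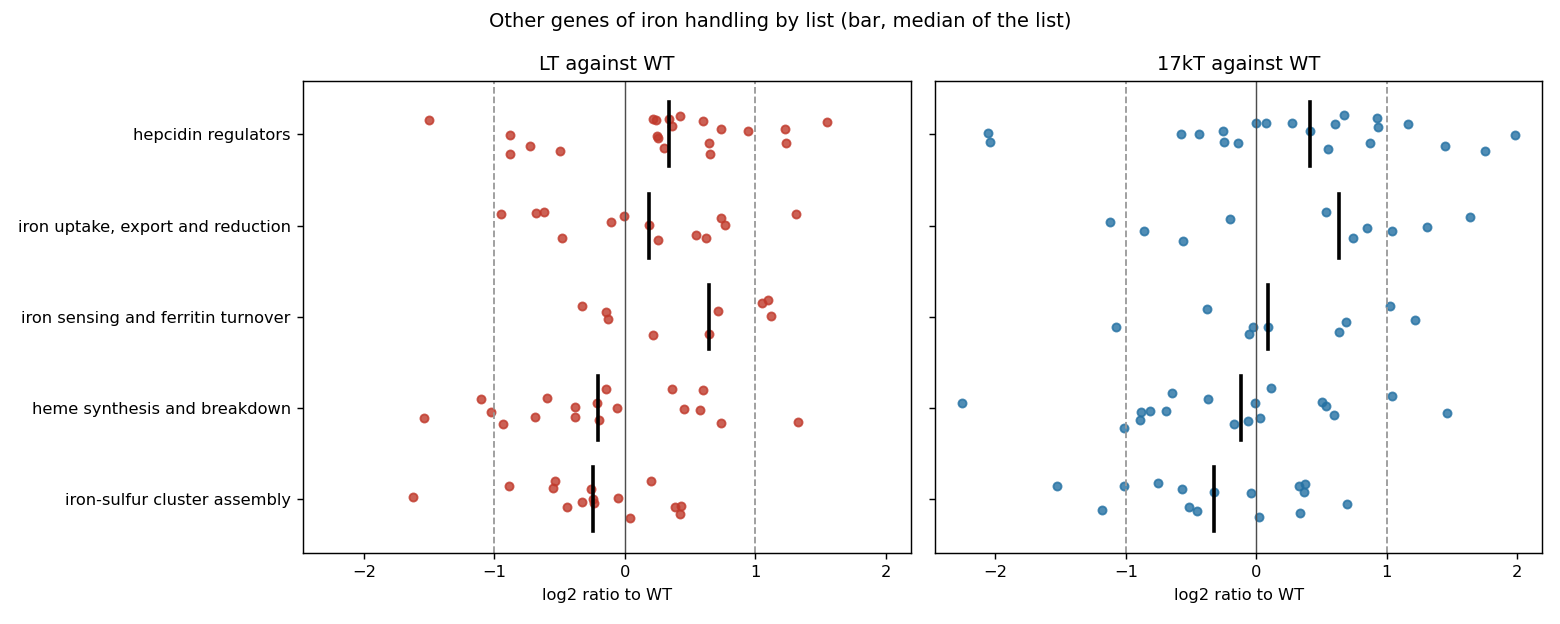
Log2 ratios to WT of the measured genes of 5 iron pathway lists in LT and 17kT liver, 1 point per gene, with black bars at list medians and dashed lines at 2-fold. Genes at the floor on 1 of the 2 arrays compared are bounds, drawn with the same mark. Among hepcidin regulators, Id1 is the highest point in both, at 1.55 and 1.98, which are bounds with WT at the floor. Cebpa and Tmprss6 are the 2 lowest in 17kT, at -2.06 and -2.04.

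The 5 genes with ratios most like those of Hamp, by distance over LT against WT and 17kT against WT among 9782 genes above the floor on all 3 arrays, were Rrm1, Ccna2, Pclaf, Nusap1 and Cdk1. Their distances were between 0.09 and 0.14 on the log2 scale. The likeness rests on 3 arrays per gene. Rrm1, the nearest, read 1087 in LT and 1290 in 17kT liver, against 151 in WT.

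**Figure D5:**
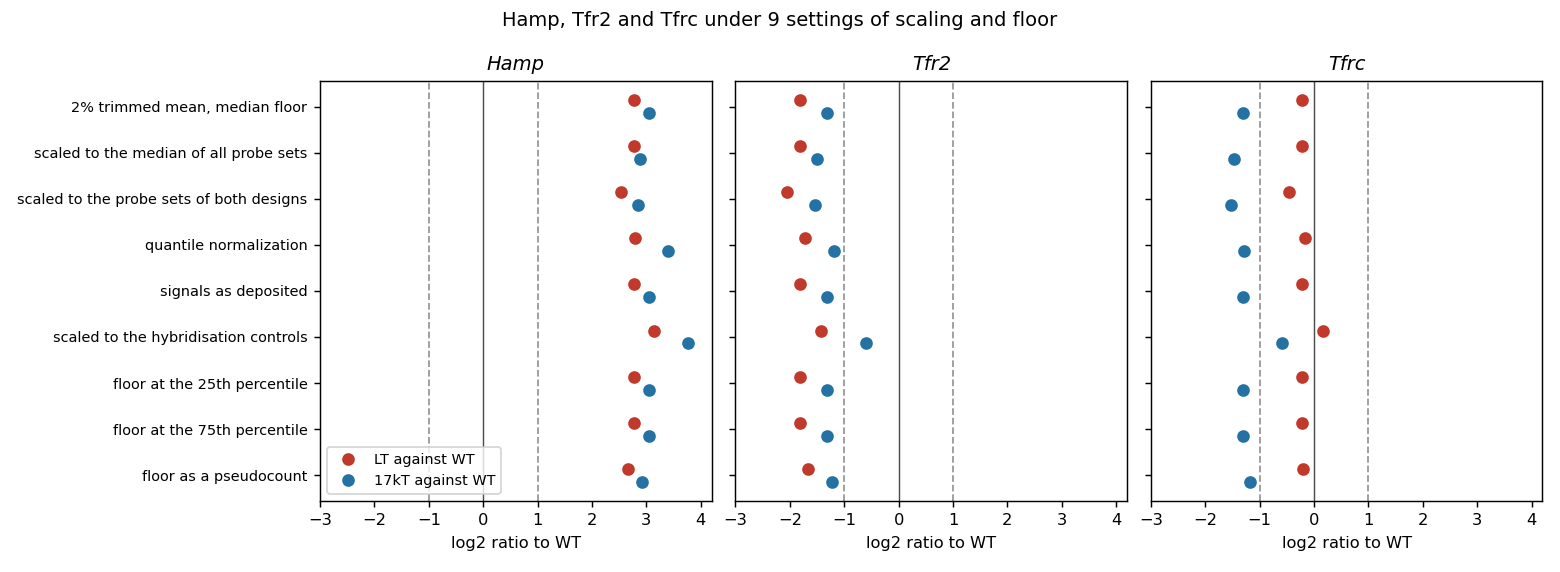
Log2 ratios of Hamp, Tfr2 and Tfrc to WT under 9 settings of scaling and floor, LT in red and 17kT in blue, with dashed lines at 2-fold. Hamp stays above 2-fold in all 9 for both, and Tfr2 and Tfrc of 17kT come inside the lines when scaled to the hybridisation controls.

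The direction of the large values held across the settings. Under 9 settings of scaling and floor, Hamp ran from 2.53 to 3.15 in LT and from 2.84 to 3.77 in 17kT against WT. These include the deposited signals, already on the common trimmed mean, and floors at the 25th and 75th percentile. None of those could move Hamp, Tfr2 or Tfrc by much, so they add little. The deposited signals also count among the 6 scalings. Tfr2 ran from -2.06 to -1.44 in LT and from -1.53 to -0.60 in 17kT. Tfrc ran from -0.47 to 0.16 in LT and from -1.52 to -0.59 in 17kT. Cp, Fth1 and Hfe had values of both signs in each comparison with WT, and so did Slc40a1 in 17kT.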

How the data were processed

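RNA of 6 liver samples was measured on Affymetrix 430A and 430B arrays, 1 array per genotype and design. For every probe set the authors deposited 1 linear intensity. MAS5 is named in the submitters' processing notes, without a version. The deposited settings files hold other entries, of which the fluidics station and the chip type were read.

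Signals were scaled within a design to a common 2% trimmed mean, floored at the median of all signals of the design and put on the log2 scale (Python 3.11.15, pandas 2.3.3, scipy 1.17.1). Symbols came from the platform annotation and were updated by gene identifier through the RefSeq table of GRCm38.p6. On 430A, 691 probe sets have several symbols and 1606 none; on 430B, 245 and 7656. These name no gene. A gene is represented by the probe set brightest relative to its floor, with _x_at kinds used where there is no other and Affymetrix controls left out. A single array per group allows no test, so differences of at least 2-fold were counted. The code was tested on simulated data. The genes named beyond the 10 are those of 5 pathway lists past 2-fold against WT, and the 5 with ratios nearest to those of Hamp. Hjv, Smad6, Id3, Stat3, Il6ra, Il6st and Alad of those lists, Hamp2, and the markers Alas2 and Hba-a2 fall outside this rule and were chosen after their values were seen. Members and lists were chosen with earlier results of these data known. The alternatives were 5 scalings, 3 treatments of the floor, a 3-fold rule, 2 other ways to represent a gene, and each design alone.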

Additional observations from a re-analysis of the deposited data

How the results depend on the processing

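The count of called iron genes in LT against WT, 2 of 7, was 2 under each of the other 12 settings that gave a value. The deposited signals could hardly change the counts, being already on the common trimmed mean. Nor could the 430A design alone, since every counted member probe set above the floor is on 430A. In 17kT against WT the count was 3. It was 2 (1 higher, 1 lower) with a gene's probe sets averaged, and 1 when scaled to the hybridisation controls or with a 3-fold rule, leaving Hamp. In LT against 17kT the count was 1, and 0 when scaled to the hybridisation controls, with the floor as a pseudocount, with a 3-fold rule, or with that averaging; the cause was not tested. The 430B design alone gave no value, because the only probe set of a member there was under the floor. Of 528 alternative values of single probe sets, 421 moved by less than the technical SD and 107 by more (56 upward, 51 downward). A called direction was reversed in 0 of them. Many of the 421 could hardly move by construction. These include all values from the deposited signals. The lower alternative floor leaves unchanged every probe set already above the main floor on all arrays. Probe sets under the floor on all arrays stay there under most settings. The 421 is therefore not a measure of robustness.

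Scaling shifted all genes. Against WT the median gene was 0.41 in LT and 0.47 in 17kT when scaled to the hybridisation controls, and -0.27 in LT when scaled to the probe sets of both designs. Relative to that median, Hamp lay from 2.67 to 2.80 in LT and from 2.89 to 3.39 in 17kT under 6 scalings, Tfr2 from -1.91 to -1.72 and from -1.48 to -1.07, and Tfrc in 17kT from -1.47 to -1.06. Of all genes in LT against WT, 1417 were higher and 1151 lower. These were 2767 and 572 with the hybridisation controls and 798 and 2161 with the probe sets of both designs. In 17kT the numbers were 1295 and 1123, against 3244 and 642 with the hybridisation controls and 1062 and 1411 with the probe sets of both designs. In LT against 17kT they were 561 and 531, against 868 and 317 when scaled to the median and 290 and 1106 with the probe sets of both designs. All called genes numbered 2568, 2418 and 1092 in the 3 comparisons, against 4434, 4071 and 2497 when the floor was put at the 25th percentile and 1380, 1246 and 467 at the 75th. They were 3886 in 17kT against WT and 1690 in LT against 17kT with the hybridisation controls, and 674 in LT against 17kT with the pseudocount. The list medians changed sign under at least 1 scaling in LT against WT for iron uptake, heme and iron-sulfur genes, and in 17kT for iron sensing, heme and iron-sulfur genes. No paired analysis was possible because each genotype has 1 array per design.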

Other observations

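Alad, the enzyme of the second step of heme synthesis, differed between the transgenic livers on both of its probe sets. The 430A probe set read 1729 in LT and 562 in 17kT liver, against 1037 in WT, and the 430B probe set 3103 in LT and 517 in 17kT liver, against 641 in WT. The log2 ratio of LT against 17kT was 1.62 on 430A and 2.59 on 430B. Against WT, the 430B probe set of LT stood at 2.28 and the 430A one at 0.74. Steap4 went the other way on both of its probe sets, with log2 ratios of -1.64 and -1.22 for LT against 17kT.

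Alas2 had a log2 ratio of -3.81 in LT and -3.63 in 17kT against WT, larger in size than that of any of the 7 measured iron genes. The spread of these values between mice is unknown, since each comes from 1 array.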
